A study of Mus musculus with 18 samples.

Results

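The albumin gene cluster of mouse chromosome 5 was examined in liver and in primary mouse embryonic fibroblasts (MEFs). Its 4 genes, *Alb*, *Afp*, *Afm* and *Gc*, were found by symbol among the 51826 genes of the liver table and the 21959 genes of the MEF table, and all 4 were listed in both. They were chosen by the liver counts of *Afp*, which were known to be high in both libraries of replicate 1, so that difference is described here without a test. The study deleted repeat B of *Xist*, the X-linked non-coding RNA that coats the inactive X chromosome, with CRISPR/Cas9 and a pair of guide RNAs. RNA-seq of polyA RNA was available for 3 RepB-/- and 3 WT libraries per tissue. In the study's naming, RepB-/- denotes homozygous loss of the repeat, RepB-/Y its loss in males, and WT the intact gene. The labels name the MEF samples as a primary line with tail as the tissue. The study bought ICR females, but the strain, age, sex and litter of the liver donors, and whether MEF replicates were separate animals, are not given in the sources used here, so p-values measure the spread between these libraries, which may be technical.

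The 4 proteins belong to the albuminoid family, which arose by duplication, and hepatocytes secrete them into plasma. Albumin (*Alb*) is the main carrier of fatty acids and many drugs in blood. Alpha-fetoprotein (*Afp*) is its fetal counterpart, made by yolk sac and fetal liver and shut down in hepatocytes after birth. Afamin (*Afm*) binds vitamin E and Wnt proteins, and the vitamin D-binding protein (*Gc*) carries vitamin D metabolites and captures actin released from cells. FOXA, C/EBP and HNF4 factors activate these genes in hepatocytes, and *Zbtb20* and *Zhx2* encode zinc-finger and homeobox proteins that repress *Afp* after birth.

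On GRCm38, *Alb* (ENSMUSG00000029368) spans chr5:90460897-90476602, *Afp* (ENSMUSG00000054932) chr5:90490737-90508907 and *Afm* (ENSMUSG00000029369) chr5:90518932-90553543, in this order on the plus strand. *Gc* (ENSMUSG00000035540) lies on the minus strand at chr5:89417522-89457898. The 250 bases before each RefSeq start are printed because these windows adjoin the starts of genes that differ widely in level (RefSeq, GRCm38.p6, all 4 matched by symbol, 5′ to 3′ along each gene's own strand). The RefSeq starts of *Alb*, *Afp* and *Afm* differ from the starts of the spans above, as their windows end at 90460869, 90490713 and 90518948. Motif distances below are counted from the RefSeq start. Capitals mark CCAAT, the CCAAT box, or its reverse complement ATTGG.
Alb, chr5:90460620-90460869, plus strand: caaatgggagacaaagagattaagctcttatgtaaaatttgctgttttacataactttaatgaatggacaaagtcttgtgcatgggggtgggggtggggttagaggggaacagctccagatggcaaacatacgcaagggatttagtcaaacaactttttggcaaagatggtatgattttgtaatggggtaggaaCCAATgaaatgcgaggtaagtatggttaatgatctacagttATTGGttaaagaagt
Afp, chr5:90490464-90490713, plus strand: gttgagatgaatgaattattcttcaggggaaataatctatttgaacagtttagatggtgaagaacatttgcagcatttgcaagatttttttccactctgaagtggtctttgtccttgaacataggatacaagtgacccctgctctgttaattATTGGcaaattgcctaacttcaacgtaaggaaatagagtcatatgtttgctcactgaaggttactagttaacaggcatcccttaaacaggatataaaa
Afm, chr5:90518699-90518948, plus strand: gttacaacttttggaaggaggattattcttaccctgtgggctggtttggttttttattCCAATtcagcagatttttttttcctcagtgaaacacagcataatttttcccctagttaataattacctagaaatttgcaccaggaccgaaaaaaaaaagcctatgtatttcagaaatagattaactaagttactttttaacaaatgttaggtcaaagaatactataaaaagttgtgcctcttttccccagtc
Gc, chr5:89457899-89458148, minus strand: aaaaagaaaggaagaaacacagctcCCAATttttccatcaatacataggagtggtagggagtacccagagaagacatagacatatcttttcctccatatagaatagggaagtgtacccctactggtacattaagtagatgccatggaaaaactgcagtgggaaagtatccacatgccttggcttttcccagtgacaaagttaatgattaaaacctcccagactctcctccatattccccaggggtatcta

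All 4 windows held CCAAT on one strand or the other, as did 11120 of 32851 RefSeq windows of the same length (33.8%). The motifs were picked after these sequences were seen, and a match is a description of the letters. The match began 98 bases before the start in *Afp*, 192 in *Afm* and 225 in *Gc*, and *Alb* held a pair of matches, at 56 and 15 bases. TATAAA was found in the windows of *Afp* and *Afm* and in 12.4% of all windows. TGTTTGC, a FOXA motif, was found in *Alb* and *Afp* and in 4.30% of all windows. TATAAA and TGTTTGC were also searched on both strands, and no match of one motif shared bases with a match of another.

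In liver, 3 libraries stood apart from the rest: both libraries of replicate 1, in many genes, and the library labelled RepB-/- replicate 2, which held Y-linked counts and almost no *Xist*. Genotype fold changes are given below for the members without RepB-/- replicate 2, and for *Afp*, *Afm* and *Gc* without both replicate 1 libraries. The replicate 1 differences, gene lists and closest genes are not given without RepB-/- replicate 2.

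Levels per length were compared on the TPM scale (transcript abundance per length, scaled to a fixed total in each library) of the deposited liver table. *Alb* had 100172, 70235 and 93810 TPM in RepB-/- replicates 1, 2 and 3 and 81100, 99360 and 85368 TPM in WT replicates 1, 2 and 3. It ranked 1 among all genes in each of the 6 libraries. *Gc* had 5223, 6051 and 4169 TPM in RepB-/- and 4561, 6992 and 6497 TPM in WT, in the same order. Its rank was between 20 and 33. *Afm* had 326, 264 and 286 TPM in RepB-/- and 250, 373 and 360 TPM in WT. The 3 genes kept the order *Alb*, *Gc*, *Afm* in every library, with no overlap between neighbours in that order.

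*Afp* was the exception, because its place depended on the replicate number. It had 447, 6.68 and 7.25 TPM in RepB-/- and 368, 11.0 and 4.22 TPM in WT. In replicate 1 of both genotypes it stood above *Afm* and ranked 250 and 315 among all genes. In the other 4 libraries it was the lowest of the 4 genes, at ranks 5803 to 9077. Taken over all 6 libraries, the levels of *Afp* and *Afm* overlapped.

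**Figure D1:**
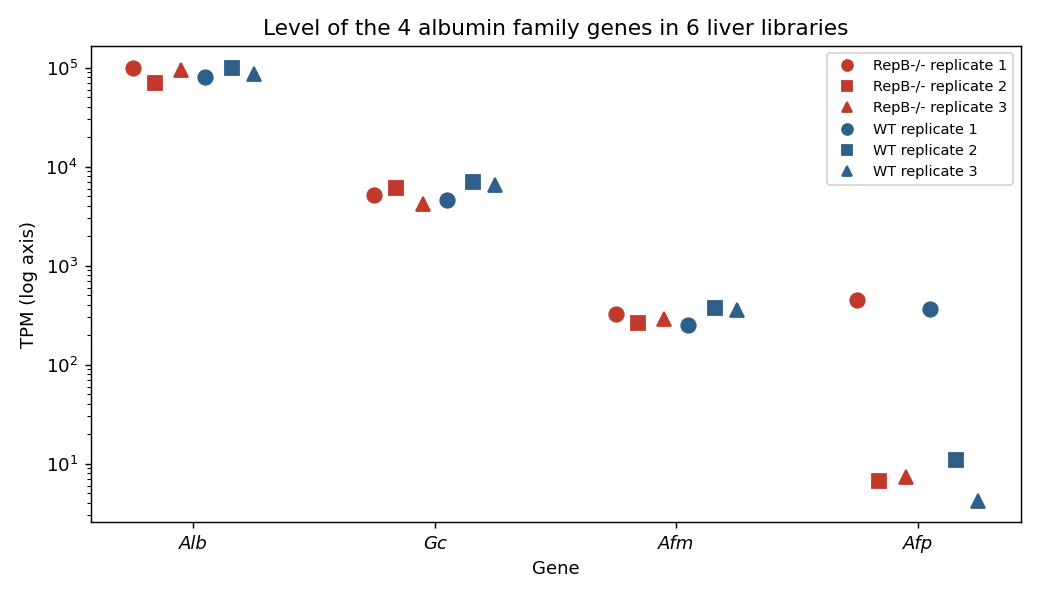
TPM (log axis) of the 4 genes in each of the 6 liver libraries; colours mark genotype and symbols mark the replicate number. *Alb*, *Gc* and *Afm* each stayed within a narrow band, whereas *Afp* had 447 and 368 TPM in replicate 1 and between 4.22 and 11.0 TPM in the other 4 libraries.

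As read counts, *Afp* had 25654, 212 and 207 in RepB-/- replicates 1, 2 and 3 and 16536, 234 and 132 in WT replicates 1, 2 and 3. Only the 2 replicate 1 libraries were high, and they did not overlap the other 4. In bulk tissue, fewer cells of a type and less RNA per cell cannot be told apart. Scaled by library size to CPM, with TMM library factors, the values were 506, 4.21 and 6.03 in RepB-/- and 369, 6.04 and 2.79 in WT. Against the mean of replicates 2 and 3, replicate 1 was 98.9-fold higher in RepB-/- and 83.5-fold higher in WT on the CPM scale. On the TPM scale the folds were 64.2 and 48.4. The ratio of TPM to library-size CPM was 0.820 and 0.838 for *Afp* in replicate 1 but between 1.48 and 1.85 in the other 4 libraries. For *Alb* that ratio was between 0.726 and 0.841 in all 6, so the size of the *Afp* difference depends on the scale and its direction does not.

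The neighbours of *Afp* in the cluster did not share its pattern. *Alb* had 5749483, 4476017 and 5594290 counts in RepB-/- and 3672608, 4655513 and 4819923 counts in WT. *Afm*, which starts just beyond *Afp*, had 18829, 17028 and 17570 counts in RepB-/- and 11431, 17739 and 20543 counts in WT. *Gc* had 265573, 341485 and 220004 counts in RepB-/- and 182880, 289984 and 324738 counts in WT. The largest *Alb*, *Afm* or *Gc* count of a replicate 1 library was in RepB-/-, and WT replicate 1 held the lowest count of each gene. WT replicate 1 was also the shallowest liver library, at 37682201 counts. By library-size CPM, *Afm* and *Gc* were still lowest there. *Alb* was lowest in RepB-/- replicate 2, at 86841 CPM against 97463 CPM in WT replicate 1.

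Replicate 1 was set against the other 4 libraries as the difference of mean log2 CPM (TMM, prior count 2). This difference was 6.56 for *Afp*, -0.26 for *Alb*, -0.48 for *Afm* and -0.57 for *Gc*. *Afp* ranked 8 from the top of 16080 tested genes, 13 of which (0.0808%) were higher by at least 6 and 56 of which (0.348%) were lower by at least 6. The filter asks for counts in 3 libraries, which shapes this rank and these shares. Genes seen in the replicate 1 libraries alone were left out, whereas genes absent from those libraries alone could be tested. With library size alone as the scale, the values were 6.82, 0.01, -0.21 and -0.30, so the sign for *Alb* depended on the scaling. Both replicate 1 libraries lay above all others for *Afp*, as for 3699 tested genes (23.0%), and below all others for *Gc*, as for 3432 tested genes (21.3%). *Alb* and *Afm* overlapped, and so did *Gc* with library size alone. These shares are background for a difference that the choice of *Afp* had used. With library size alone they turned from 3699 above and 3432 below to 5462 above and 1752 below, and the median over all tested genes moved from 0.01 to 0.28. List counts given below with library size alone are to be read against 5462 and 1752 of 16080 tested genes.

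**Figure D2:**
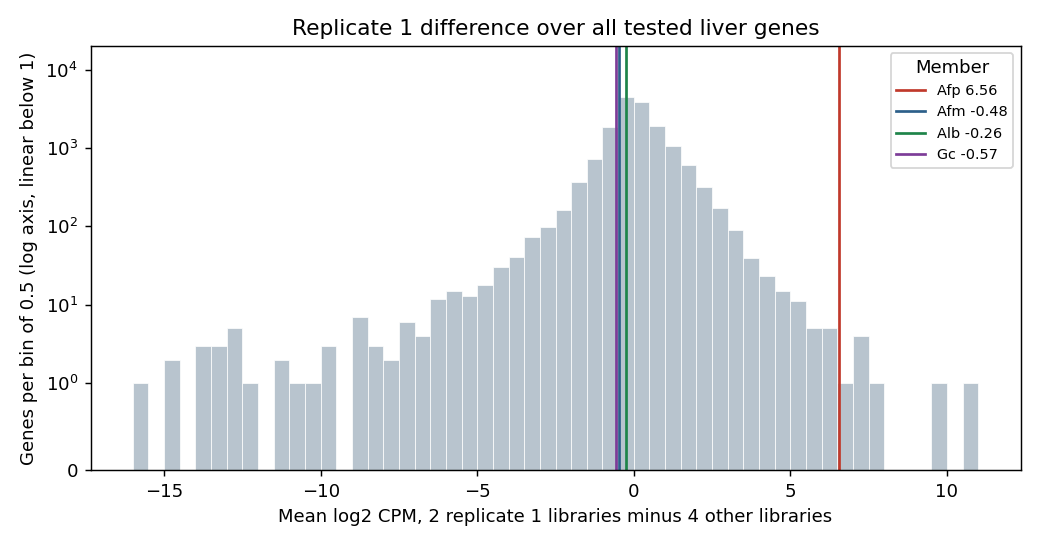
Genes per bin (log axis, linear below 1) of the difference in mean log2 CPM between the 2 replicate 1 libraries and the other 4, for 16080 tested liver genes. Vertical lines mark the members: *Afp* at 6.56 stands far to the right, and *Alb*, *Afm* and *Gc* sit just below 0.

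Within a library, ratios between members need no library scale. *Afp* had 4.46, 0.0474 and 0.0370 counts per 1000 *Alb* counts in RepB-/- replicates 1, 2 and 3 and 4.50, 0.0503 and 0.0274 in WT replicates 1, 2 and 3. The ratio was thus nearly equal in the replicate 1 libraries of the genotypes. In RepB-/-, the mean log2 ratio was -2.33 ± 3.89, and in WT it was -2.45 ± 4.02 (each SD, n = 3), a difference of 0.11 (exact permutation test, two-sided, p = 1.00, where the smallest p possible is 0.1). *Afm* had 3.28, 3.80 and 3.14 counts per 1000 *Alb* counts in RepB-/- and 3.11, 3.81 and 4.26 in WT. *Gc* had 46.2, 76.3 and 39.3 in RepB-/- and 49.8, 62.3 and 67.4 in WT. Neither ratio differed between genotypes beyond the spread of the libraries (log2 difference -0.12 for *Afm* and -0.20 for *Gc*, p = 0.6 for each by the same exact permutation test).

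Together the 4 genes took 12.9%, 9.38% and 13.5% of all counts in RepB-/- and 10.3%, 12.6% and 11.2% in WT. The means were 11.9% ± 2.21 and 11.4% ± 1.16 (SD, n = 3 each), and the exact permutation test gave p = 0.8. *Afp* contributed 0.0546% and 0.0439% in replicate 1 and at most 0.000594% elsewhere.

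In the comparison of genotypes in liver, none of the 4 genes passed the test. In edgeR's quasi-likelihood fit of all genes, 6 of 16080 tested genes passed an adjusted p of 0.05 (0.0373%) and 502 had an unadjusted p under 0.05. DESeq2 called 80 genes. None of the 4 was among them, and DESeq2 gave *Afp* no adjusted p. The log2 fold change of RepB-/- against WT was 0.27 ± 0.63 (SE) for *Alb*, 0.45 ± 2.22 for *Afp*, 0.09 ± 0.34 for *Afm* and 0.001 ± 0.42 for *Gc*, each with an adjusted p of 1.00 (edgeR, Benjamini-Hochberg). The 95% intervals ran from -1.25 to 1.78 for *Alb*, from -4.84 to 5.75 for *Afp*, from -0.72 to 0.90 for *Afm* and from -1.001 to 1.003 for *Gc*. Changes of about 2-fold in either direction thus lie inside the interval of *Alb*, and the interval of *Afp* holds far larger ones. The genotypes overlapped in CPM for all 4 genes, whereas they did not overlap for 1294 of 16080 tested genes (8.05%).

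The wide interval of *Afp* moved with the replicate 1 libraries. Leaving out RepB-/- replicate 1 gave a log2 fold change of -4.62 and leaving out WT replicate 1 gave 5.28, both short of the threshold (adjusted p = 0.999 and 0.658). With the replicate number as a block the value was 0.35 ± 0.34 (SE) with a 95% interval from -0.49 to 1.19 and an adjusted p of 0.872 in edgeR. Without both replicate 1 libraries it was 0.21 ± 0.46. Between libraries of the same number, the log2 CPM of *Afp* differed (RepB-/- minus WT) by 0.46 for number 1, -0.52 for number 2 and 1.10 for number 3. *Alb* differed by 0.47, -0.44 and 0.68, *Afm* by 0.54, -0.44 and 0.24, and *Gc* by 0.36, -0.14 and -0.10.

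**Figure D3:**
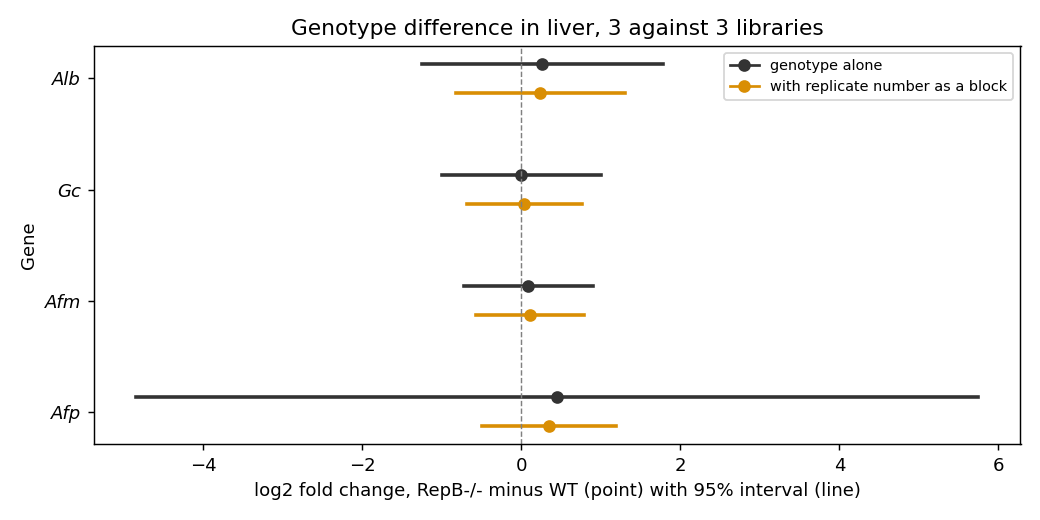
log2 fold change of RepB-/- against WT in liver with its 95% interval, for genotype alone (dark) and with the replicate number as a block (orange). All intervals include 0, and that of *Afp* shrank from between -4.84 and 5.75 to between -0.49 and 1.19 with the block.

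All 4 differences were negative for number 2. The library labelled RepB-/- replicate 2 held 4 counts of *Xist* and 4342 counts of 4 Y-linked genes, whereas the other 5 liver libraries held 14494 to 26345 counts of *Xist* and at most 1 Y-linked count. By these counts it reads as a male library, to which the homozygous meaning of its label does not apply. Without it, the log2 fold changes were 0.45 for *Alb*, 1.03 for *Afp*, 0.21 for *Afm* and -0.08 for *Gc*, and none passed (adjusted p = 0.999 for each in edgeR). The part of sex in these values was not tested. The *Xist* count does not check the deletion, because it covers the whole transcript and repeat B is only a part of it.

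Other genes that fetal liver is known to express were high where *Afp* was high. Of 22 listed fetal liver genes, 19 were tested, and 17 of them lay above all other libraries in both replicate 1 libraries, with none below, against 23.0% above and 21.3% below over all tested genes. Their median difference was 3.07, against 0.01 over all tested genes. The same 17 and 0 were counted with library size alone. *H19*, an imprinted non-coding RNA, had 3877, 1.86 and 12.4 CPM in RepB-/- and 3538, 0.878 and 0.464 CPM in WT. *Igf2*, the fetal growth factor next to it, had 1479, 0.913 and 1.49 CPM in RepB-/- and 763, 0.955 and 0.802 CPM in WT. *Gpc3*, a cell-surface proteoglycan of fetal hepatocytes, had 98.2, 0.714 and 0.175 CPM in RepB-/- and 78.4, 0.981 and 0.401 CPM in WT. All 3 separated replicate 1 from the other 4 libraries in both genotypes, as *Afp* did.

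*Dlk1*, a membrane protein of hepatoblasts, had 245, 0 and 0 counts in RepB-/- and 51, 0 and 2 counts in WT, and was not tested. The fetal genes that overlapped were *Meg3* and *Cyp3a16*, an imprinted RNA and a cytochrome P450 of young liver. No fetal liver gene was called between genotypes (0 of 19, median log2 fold change 0.14, against 0.01 over all tested genes).

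Known regulators of the cluster were measured in the same libraries, and all 27 listed were tested. *Zbtb20* had 21.4, 59.2 and 79.9 CPM in RepB-/- and 16.4, 48.4 and 53.1 CPM in WT. *Zhx2* had 8.96, 17.2 and 14.98 CPM in RepB-/- and 7.78, 13.7 and 14.2 CPM in WT. Both repressor genes of *Afp* were lowest in the replicate 1 libraries, without overlap, by -1.65 and -0.84 on the log2 scale. Among the activators, *Hnf4a* had 362, 620 and 637 CPM in RepB-/- and 342, 644 and 549 CPM in WT. *Nr5a2*, which encodes a nuclear receptor, had 23.0, 35.7 and 38.2 CPM in RepB-/- and 17.0, 40.4 and 35.0 CPM in WT. These activator genes, too, were lower in both replicate 1 libraries than in any other.

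With TMM factors, *Cebpa* was also below all others in replicate 1, with 22.6, 309 and 293 CPM in RepB-/- and 261, 294 and 276 CPM in WT. RepB-/- replicate 1 was far below the rest, whereas WT replicate 1 lay just under them. By library size alone, WT replicate 1 was not below the rest. It held 11710 counts of *Cebpa*, against 11392 in the deeper WT replicate 2. *Foxa2* had 17.2, 30.7 and 17.0 CPM in RepB-/- and 38.2, 46.7 and 32.1 CPM in WT. Its genotypes did not overlap, as for 8.05% of tested genes, but the log2 fold change of -0.85 ± 0.30 (SE) did not pass (adjusted p = 1.00 in edgeR). *Dbp*, a clock-driven activator of *Alb*, had 17.2, 3.41 and 8.36 CPM in RepB-/- and 10.1, 0.852 and 1.31 CPM in WT. It was highest in replicate 1 within each genotype. Over the 27 regulators, 4 (14.8%) were above and 8 (29.6%) below all other libraries in replicate 1, shares close to the 23.0% and 21.3% of all tested genes. With library size alone they were 7 and 6, against 5462 and 1752 of 16080 tested genes. None was called between genotypes (median log2 fold change 0.21).

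**Figure D4:**
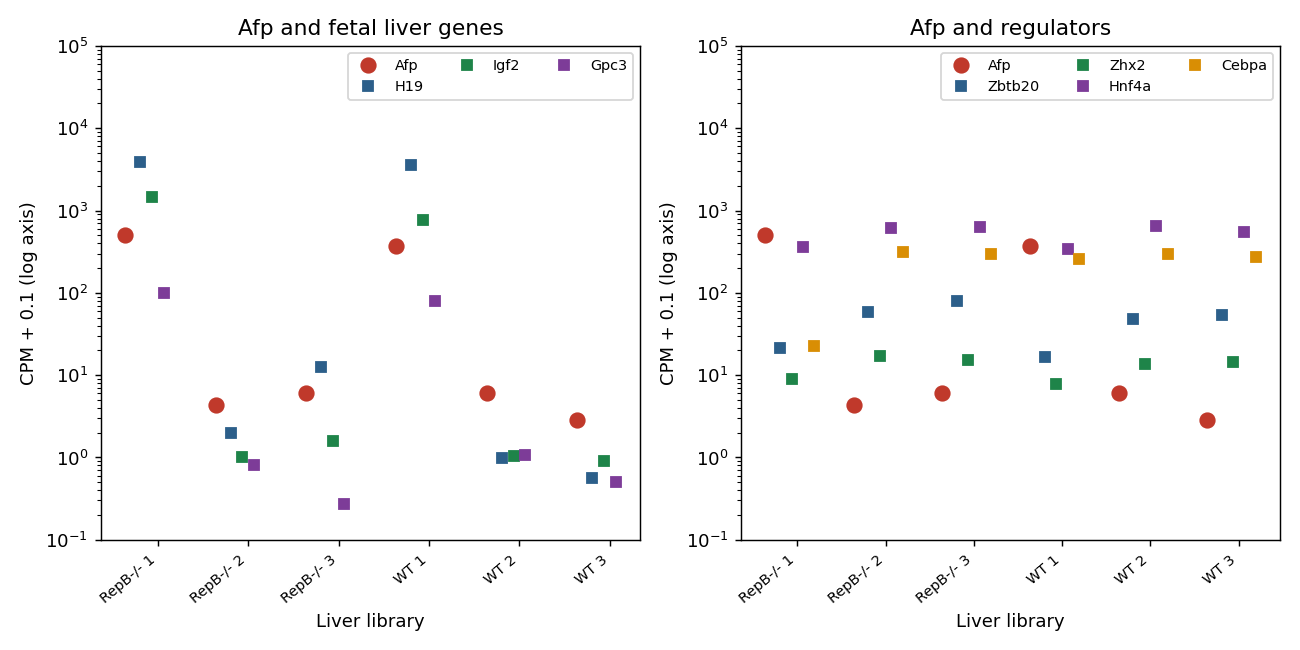
CPM plus 0.1 (log axis) of *Afp* (circles) with fetal liver genes (left) and with regulators (right) in each liver library (squares, shifted sideways for view). *H19*, *Igf2* and *Gpc3* are high in the libraries where *Afp* is high, *Zbtb20* and *Zhx2* are lowest in replicate 1, and *Cebpa* is far lower in RepB-/- replicate 1, at 22.6 CPM, than in WT replicate 1, at 261 CPM.

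Genes of mature hepatocytes tended the other way. Of 20 listed, 13 (65.0%) lay below all other libraries in replicate 1 and 1 (5.0%) above, against 21.3% and 23.0% of all tested genes, with a median difference of -1.004 (11 below and 2 above with library size alone). *Cyp2e1*, which oxidises ethanol, had 2898, 3611 and 6406 CPM in RepB-/- and 2773, 3496 and 3884 CPM in WT. *Cyp7a1*, the rate-limiting enzyme of bile acid synthesis, had 37.7, 49.3 and 199 CPM in RepB-/- and 26.8, 229 and 69.0 CPM in WT. Both were lowest in replicate 1 of each genotype. *Cps1*, of the urea cycle, overlapped with 2108, 1893 and 2362 CPM in RepB-/- and 1340, 3927 and 3478 CPM in WT. None of the 20 was called between genotypes (median log2 fold change 0.04).

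Other secreted plasma proteins behaved more like *Alb* than like *Afp* in size of difference. Of 28 listed, 8 (28.6%) were above and 5 (17.9%) below all other libraries in replicate 1, near the 23.0% and 21.3% of all tested genes. Their median difference was 0.13 (12 above and 2 below with library size alone). Their summed level by library size alone did not overlap, with 195804 and 198438 CPM in replicate 1 against 102801 to 139031 CPM in the other libraries. *Ahsg*, also on the list, was above all others in replicate 1, by 1.58 on the log2 scale. *Ttr*, which carries thyroxine, had 10270, 7645 and 6122 CPM in RepB-/- and 6632, 5394 and 6836 CPM in WT, and overlapped. *Trf*, the gene of the iron carrier transferrin, had 27301, 17118 and 12940 CPM in RepB-/- and 26795, 17128 and 15702 CPM in WT. *Apoa1*, the main protein of high-density lipoprotein, had 18300, 12017 and 11581 CPM in RepB-/- and 15512, 5465 and 6698 CPM in WT. *Trf* and *Apoa1* were higher in replicate 1 without overlap, by 0.79 and 1.00 on the log2 scale, far less than *Afp*. None of the 28 was called between genotypes (median log2 fold change 0.08).

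Genes that handle the cargo of these carriers were also listed, and 7 of 12 passed the filter on low counts. Of the 7, 5 were below all other libraries in replicate 1 and 0 above, against 21.3% and 23.0% of all tested genes (4 and 1 with library size alone). *Fcgrt*, the receptor that rescues albumin from breakdown, had 129, 136 and 78.2 CPM in RepB-/- and 103, 79.4 and 98.5 CPM in WT, with overlap both by genotype and by replicate 1. *Cyp2r1*, a vitamin D 25-hydroxylase, had 1.60, 5.58 and 3.29 CPM in RepB-/- and 2.25, 5.45 and 6.04 CPM in WT. *Ttpa*, the vitamin E transfer protein, had 126, 235 and 265 CPM in RepB-/- and 103, 303 and 304 CPM in WT. *Cyp2r1* and *Ttpa* were lowest in replicate 1, as *Gc* was on the same scale. With library size alone, *Cyp2r1* overlapped, as *Gc* did. *Lrp2*, the kidney receptor for *Gc* and its cargo, had at most 12 counts in any liver library. None of the 7 was called between genotypes (median log2 fold change -0.18).

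Markers of some other cell types moved with replicate 1 too, and their part in the *Afp* difference was not tested. Over all tested genes, 23.0% were above all other libraries in replicate 1. Counts of genes above use TMM factors, whereas the summed levels are CPM by library size alone. All 8 proliferation genes were above all other libraries in replicate 1, with summed levels of 271 and 264 CPM against 29.4 to 75.2 CPM. For stellate and fibroblast markers this held for 6 of 8 (1610 and 1211 against 322 to 507 CPM), and for endothelial markers for 4 of 6 (363 and 407 against 205 to 231 CPM). Cholangiocyte markers did so for 2 of 5 tested (79.8 and 68.2 against 35.2 to 53.1 CPM), with sums that did not overlap. Kupffer markers did so for 2 of 8, near the share of all genes, and their sum in RepB-/- replicate 1, 453 CPM, was below the 459 to 546 CPM of the other 4 libraries, while WT replicate 1 had 1253 CPM. Erythroid genes did so for 3 of 10, with sums of 5042, 2272 and 1168 CPM in RepB-/- and 2073, 367 and 315 CPM in WT, which overlapped. Between genotypes, the median log2 fold change was 1.86 for erythroid genes (2.26 with the replicate block) and 0.53 for proliferation genes (0.88 with the block). For cholangiocyte markers it turned from 0.25 to -0.29 with the block, and for Kupffer markers it moved from -0.29 to -0.13. For endothelial markers it was 0.05 (0.02 with the block), and for stellate and fibroblast markers 0.23 (0.25 with the block). The counts for fetal, proliferation, erythroid, Kupffer and endothelial genes were the same with library size alone, and fibroblast and cholangiocyte counts were then 7 and 4. Over all tested genes the count above then rose from 3699 to 5462 of 16080, so unchanged counts stand against a larger share.

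Of these marker genes, none was called between genotypes in the fit without the block. *Slc4a1*, the anion exchanger of red cells, had 57.4, 1.47 and 2.21 CPM in RepB-/- and 2.74, 0.0516 and 0.0844 CPM in WT. WT replicates 2 and 3 held only 2 and 4 counts of *Slc4a1*, near the limit of detection of 3 counts. Its log2 fold change was 4.40 (adjusted p = 1.00 in edgeR) and 4.51 with the replicate block (adjusted p = 0.0174), where 8 genes were called in all (0.0498%). With a term for replicate 1, chosen later, the value was 4.50 (adjusted p = 0.00914 in edgeR). With genotype alone, it was 0.94 without RepB-/- replicate 1 and 8.15 without WT replicate 1 (adjusted p = 0.999 and 0.645 in edgeR). Without both it was 4.68 (adjusted p = 0.126 in edgeR). *Slc4a1* was named after its values were seen, as the only listed gene called with the block.

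The genes around the cluster were listed to see whether the *Afp* pattern extended along the chromosome. Within 300 kb of a member the liver table held 24 other genes, of which 14 had at least 10 counts in some library and 12 were tested. In replicate 1, 3 of the 12 were above and 5 below all other libraries, where 23.0% and 21.3% of all tested genes were, so that the count above is at the share of all genes. *Gm43449*, annotated on the opposite strand across part of *Afp*, had 14, 11 and 13 counts in RepB-/- and 8, 8 and 23 counts in WT. It did not follow *Afp*. Whether the counting used strand is not given in the sources used here, so reads of the overlapping pair may not be told apart. *5830473C10Rik*, which starts 7.56 kb beyond *Afm*, had 3182, 2834 and 1300 counts in RepB-/- and 2112, 1421 and 2430 counts in WT. *Ankrd17*, 94.3 kb from *Alb* on the other side, had 2497, 2184 and 2746 counts in RepB-/- and 2096, 2034 and 2078 counts in WT. Neither separated replicate 1.

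The 3 neighbours above all others in replicate 1 lay 215 to 219 kb from a member. *Ppbp*, a platelet chemokine gene, had 3807, 80 and 12 counts in RepB-/- and 171, 30 and 37 counts in WT. *Pf4*, platelet factor 4, had 1350, 54 and 18 counts in RepB-/- and 229, 35 and 24 counts in WT. *Adamts3*, a procollagen protease between *Gc* and *Alb*, had 33, 10 and 0 counts in RepB-/- and 24, 10 and 0 counts in WT. In *Ppbp* and *Pf4*, RepB-/- replicate 1 stood apart from WT replicate 1 as well, unlike *Afp*. *Cxcl5*, a neutrophil chemokine, was not tested and had 17, 0 and 0 counts in RepB-/- and 18, 0 and 0 counts in WT.

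The 5 neighbours below all others in replicate 1 on the CPM scale were *Slc4a4*, *Rassf6*, *Gm9958*, *Gm43448* and *Gm2602*, with log2 differences of -0.48, -0.54, -1.19, -1.04 and -0.52. *Slc4a4*, a bicarbonate transporter, had 2574 to 3527 counts and *Rassf6* 256 to 443. *Cox18*, with 350 to 828 counts, overlapped. The predicted genes *Gm2602*, *Gm9958*, *Gm43448* and *Gm6366* had at most 103, 73, 27 and 13 counts. No neighbour was called between genotypes in liver (0 of 12, all adjusted p = 1.00 in edgeR).

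**Figure D5:**
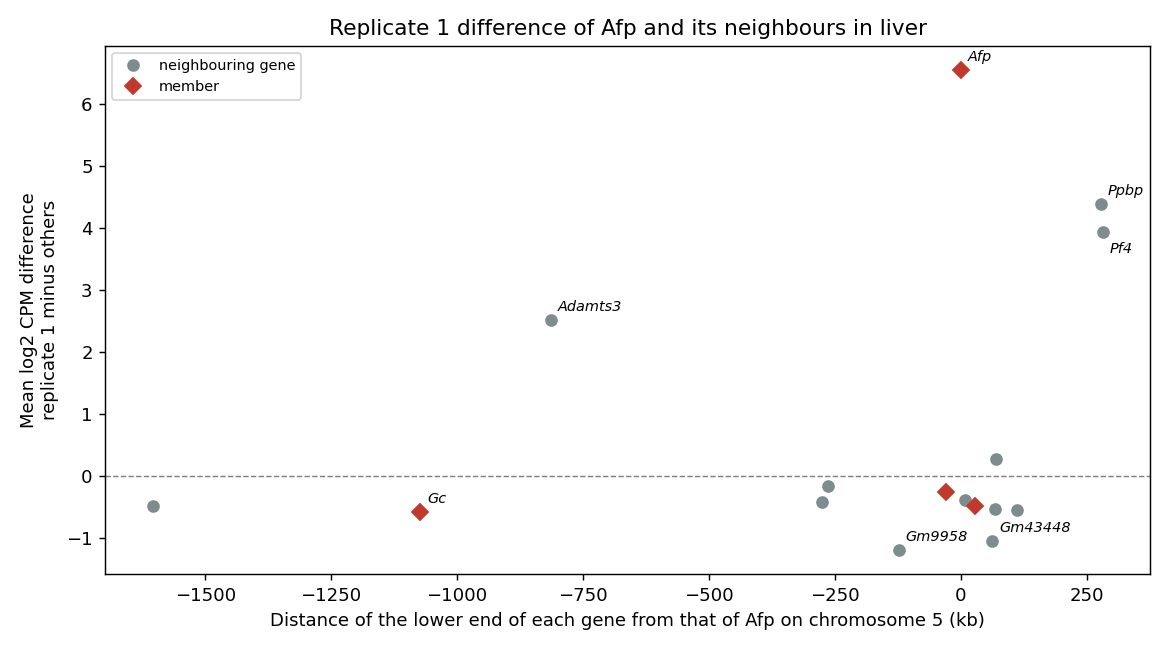
Difference in mean log2 CPM between replicate 1 and the other 4 liver libraries for the members (diamonds) and the 12 tested neighbours (circles), against the distance of each gene's lower end from that of *Afp* in kb. *Afp* at 6.56 stands alone among the genes close to it; *Ppbp* at 4.39 and *Pf4* at 3.95 are the next highest.

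The genes most like each member were sought by Pearson's r of log2 CPM over the 6 liver libraries, among 12270 other protein-coding genes with a mean of at least 1 CPM. For *Afp* and *Gc*, the 2 replicate 1 libraries lay apart from the other 4, and so r mainly reflects that split. *Alb* and *Afm* overlapped between replicate 1 and the other 4 libraries. For *Afp*, the closest were *5330417C22Rik* (r = 0.999), *P3h4* (0.998), *Jam3* (0.998), *Igf2* (0.996) and *Sec14l1* (0.996), and 408 genes had r above 0.95. *5330417C22Rik* had 22.2, 1.63 and 1.92 CPM in RepB-/- and 21.3, 1.83 and 1.18 CPM in WT, a smaller contrast than that of *Afp*. For *Alb*, the closest were *Chm* (0.992), *Tom1l1* (0.990) and *Plpp3* (0.984), with 26 genes above 0.95. Like *Alb*, these genes were highest in RepB-/- replicate 3. For *Afm*, they were *Nipbl* (0.984), *Rdx* (0.978) and *Notch2* (0.976), with 36 genes above 0.95. For *Gc*, they were *Nqo2* (0.997), *Clcn2* (0.996) and *Gnmt* (0.996), with 187 genes above 0.95. *Gnmt*, which methylates glycine, had 496, 1512 and 1037 CPM in RepB-/- and 197, 1751 and 1473 CPM in WT. None of these 14 named genes stood among the closest of more than 1 member.

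In MEFs the cluster was at or under the limit of detection. *Alb* had 0, 1 and 1 counts in RepB-/- replicates 1, 2 and 3 and 2, 0 and 0 in WT. *Afp* had 0, 0 and 2 counts in RepB-/- and 0, 1 and 1 in WT. *Afm* had 0, 2 and 0 in RepB-/- and none in WT, and *Gc* had none in RepB-/- and 3, 3 and 0 in WT. Library totals were 11540344 to 20587556, so that 3 counts correspond to 0.146 to 0.260 CPM. No member passed the filter on low counts, and no fold is given, since both genotypes are at or under 3 counts per library. Collagen and other stellate and fibroblast markers summed to between 10244 and 16264 CPM in these libraries. In the same libraries 5202 of 13306 tested genes (39.1%) were called between genotypes by edgeR.

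Of the neighbours, 9 were tested in MEFs and 3 were called, near that share. *Slc4a4* had 2211, 1959 and 2079 counts in RepB-/- and 670, 987 and 974 in WT, and rose by a log2 fold change of 0.89 ± 0.08 (SE, adjusted p = 2.95e-06 in edgeR). *Rassf6*, a Ras-association protein, had 73, 58 and 58 counts in RepB-/- and 62, 104 and 94 in WT (-0.82 ± 0.21, adjusted p = 0.00705 in edgeR). *Ppbp* had 96, 137 and 111 counts in RepB-/- and 109, 302 and 300 in WT (-1.38 ± 0.24, adjusted p = 0.000585 in edgeR). *Rassf6* and *Ppbp* thus fell, although the unscaled counts of WT replicate 1, the shallowest library at 11540344 counts, overlapped RepB-/- for both, and *Ankrd17*, *Cox18*, *Pf4*, *Cxcl5*, *Cxcl3* and *Adamts3* did not pass.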

How the data were processed

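RNA-seq of 6 liver and 6 MEF libraries was analysed, with genotypes and replicate numbers from the library titles (B read as RepB-/-, W as WT). Brain libraries are not analysed here. The tables hold read counts and, for liver, TPM, both made by the authors and deposited with no further normalization of the counts. The paper names Cutadapt, Hisat2 and DESeq2, and the submitters' processing notes name Trim Galore 0.4.1, STAR 2.7.0 and HTSeq 0.12.4. The formula behind the deposited TPM is not given in the sources used here. The liver table carries GRCm38 positions and the MEF table GRCm39 positions. The other 12 columns of per-library values were not used.

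Counts were fitted per tissue with edgeR 4.0.16 in R 4.3.3 (TMM, filterByExpr, glmQLFit, genotype as the term, Benjamini-Hochberg adjusted p of 0.05). The paper used DESeq2, run here as an alternative (1.42.0). filterByExpr asks for counts in 3 libraries, so genes seen in 2 libraries alone were not tested. Liver totals were 37682201 to 51542709 counts and the biological coefficient of variation was 51.2%, or 33.7% with a replicate block. Libraries of the same number deviated together in liver (correlations 0.710, 0.361 and 0.365), so the numbers were taken to pair them. Deviations were taken from the mean of each genotype, so with replicate 1 apart, numbers 2 and 3 tend to correlate in either order. Their crosswise correlations, 0.406 and 0.404, were above the matched 0.361 and 0.365. The data thus show a shared deviation for number 1 only, and numbers 2 and 3 were paired by label. In MEFs the correlations were -0.011, -0.0416 and -0.0035. The limit of detection was set at 3 counts, which covers counting error only. The scripts were tested on simulated data. Python 3.11.15 with pandas 2.3.3, numpy 2.4.6 and matplotlib 3.10.9 gave the tables and plots.

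Genes named were the members, genes within 300 kb of a member with at least 10 counts in some liver library, chosen genes of the lists, and the most alike protein-coding genes (5 for *Afp*, 3 for each other member). Members and lists were chosen with earlier results of these data known. Alternatives were DESeq2, its size factors, no filter, a replicate block, the members left out of library sizes, each library left out, and, for replicate 1, library size alone and a prior count of 0.5. Fits with a term for replicate 1, that term without RepB-/- replicate 2, and without both replicate 1 libraries were chosen later, after seeing the data, as was the recomputation for *Slc4a1*, *Slc4a4*, *Rassf6* and *Ppbp*. The tables list transferrin as *Trf*. The values of 1 listed regulator are not reported here, although the list's counts include it.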

Additional observations from a re-analysis of the deposited data

How the results depend on the processing

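None of 56 recomputed member fold changes in liver passed the threshold. Adjusted p ranged from 0.658 to 1.00, and DESeq2 gave none for *Afp*. Over fits that each lacked 1 library, log2 fold changes lay between 0.006 and 0.447 for *Alb*, -4.615 to 5.284 for *Afp*, -0.13 to 0.248 for *Afm* and -0.222 to 0.175 for *Gc*. Without both replicate 1 libraries, *Afm* and *Gc* turned to -0.068 and -0.118. The number of liver genes called, 6, was 80 with DESeq2, 0 with no filter, 3 with the members left out of library sizes, 2 without both replicate 1 libraries, 3 with the term for replicate 1 and without RepB-/- replicate 2, and between 0 and 4 with each library left out; the cause was not tested. Leaving out RepB-/- replicate 1, 2 or 3, or WT replicate 2 or 3, gave 0. In MEFs 5202 genes were called, between 3956 and 5233 with each library left out. The genotype difference in log2 *Afp* per *Alb* count, 0.11, ranged from -2.134 to 2.419 over libraries left out, and that in the percent of counts taken by the 4 genes, 0.56 points, from -0.218 to 1.827. With library size alone the replicate 1 difference moved to -0.215 for *Afm* and -0.302 for *Gc*, and with the members also left out to -0.216 and -0.303.

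The replicate block paired libraries by number, although the deviations in liver show a pair for number 1 only. With the block, 8 liver genes were called. The fold changes were 0.24 for *Alb*, 0.35 for *Afp*, 0.12 for *Afm* and 0.04 for *Gc*. The paired differences in the *Afp* ratio and the percent stayed at 0.112 and 0.56. In MEFs, where the numbers share no deviation, the block gave 5006 calls. Apart from *Slc4a1* in liver, the block changed no call of a gene named here. With 3 libraries per genotype, the liver fit leaves intervals of about 1 log2 unit or more either side for *Alb* and *Gc*. In MEFs, the limit of detection was 0.146 to 0.260 CPM, by library.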
